A study of Homo sapiens with 4 samples.

Results

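The insulin-like growth factor (IGF) genes and their binding proteins were taken as the rows of the expression table whose symbol is IGF1, IGF2, IGF1R or IGFBP1 to IGFBP7. All 10 symbols were found, each on 1 of the 63651 rows. The cells were BJ-5ta, human foreskin fibroblasts immortalised with telomerase, in clonal derivatives that carry a doxycycline-inducible FOXA2 transgene. The labels give 2 induced samples, exposed to doxycycline at 0.5 µg/ml, and 2 uninduced samples without it. Both groups carry the transgene, were selected with puromycin and hygromycin, and were grown with serum and bFGF at 5 ng/mL. The shared protocol also names mimosine at 200 µM, a blocker of the cell cycle in G1, without saying which cultures received it. The length of induction is not given in the labels, and a mark in the induced column's header that may stand for days is not explained. No cells with doxycycline and without the transgene were analysed here, so FOXA2 and the drug cannot be told apart.

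IGF1 and IGF2 are secreted hormones that signal growth and survival through the receptor tyrosine kinase IGF1R. IGFBP1 to IGFBP6 bind them with high affinity in the space outside the cell, where they can withhold the ligand or hold it near the cell, and proteases that cleave a binding protein release it again. IGFBP7 is a related secreted protein of low affinity for IGF. In the liver, where FOXA2 is normally active, IGFBP1 is a classical target of forkhead factors.

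The expression table holds 1 value per gene for each group, in FPKM, fragments per kilobase of transcript scaled to the mapped total, with a deposited lower and upper bound. It holds no value per sample, so no SD, n or p-value is given, and no difference has a replicate check. The words rose and fell are kept for genes whose deposited intervals are apart, with no overlap between the 2 columns. Of the 14319 genes with at least 1 FPKM in at least 1 column, 104 rose (0.726%) and 65 fell (0.454%). FOXA2 was at 104 FPKM (interval 50.2 to 158) in the induced column and 4.82 FPKM (0.526 to 9.12) in the uninduced column, and rose. All 10 fibroblast markers searched passed the 1 FPKM filter, with summed levels of 2912 FPKM induced and 4526 FPKM uninduced and 0 that rose or fell. Of the hepatocyte markers 2 of 10 passed, with sums of 2.68 FPKM induced and 0.881 FPKM uninduced, and APOB, TTR, AHSG, HNF4A and CYP3A4 were listed at 0 in both columns. Of the epithelial, keratinocyte, endothelial, immune, melanocyte and smooth muscle markers 2 of 7, 1 of 6, 0 of 5, 2 of 5, 2 of 5 and 2 of 4 passed, and 0 rose or fell.

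IGFBP5 fell after induction and was the sole member of the family whose intervals separated. This binding protein attaches to extracellular matrix and is made by fibroblasts, muscle and bone. The other 4 abundant binding proteins, IGFBP3, IGFBP4, IGFBP6 and IGFBP7, had higher values in the induced than in the uninduced column, each with overlapping intervals. IGF1R was expressed in both columns, while IGF1, IGF2, IGFBP1 and IGFBP2 lay at or near 0.

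Sequences just upstream of 1 start site each are shown for IGFBP5, IGFBP3, IGFBP4 and IGFBP6. They set the binding protein that fell after induction of a DNA-binding factor beside 3 abundant ones whose intervals overlap. Each is the 250 bases before the start, read 5′ to 3′ on the gene's strand, from RefSeq (GRCh38.p14). Capitals mark a forkhead core word or a TATA word. The rows of IGFBP5, IGFBP3, IGFBP4 and IGFBP6 carry 3, 9, 2 and 4 annotated start sites, so other starts of these genes are not covered. IGFBP5 lies at chr2:216695550-216695799 on the minus strand, IGFBP3 at chr7:45921273-45921522 on the minus strand, IGFBP4 at chr17:40443200-40443449 on the plus strand and IGFBP6 at chr12:53097417-53097666 on the plus strand.
IGFBP5: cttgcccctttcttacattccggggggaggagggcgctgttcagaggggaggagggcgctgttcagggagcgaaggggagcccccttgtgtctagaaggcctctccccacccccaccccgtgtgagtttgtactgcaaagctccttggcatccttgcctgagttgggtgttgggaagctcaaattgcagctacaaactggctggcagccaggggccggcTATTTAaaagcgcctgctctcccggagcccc
IGFBP3: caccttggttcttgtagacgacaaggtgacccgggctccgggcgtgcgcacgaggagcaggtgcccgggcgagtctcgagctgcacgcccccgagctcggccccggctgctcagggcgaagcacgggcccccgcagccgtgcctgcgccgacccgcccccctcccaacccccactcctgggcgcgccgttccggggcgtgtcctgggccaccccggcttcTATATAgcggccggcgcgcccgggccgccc
IGFBP4: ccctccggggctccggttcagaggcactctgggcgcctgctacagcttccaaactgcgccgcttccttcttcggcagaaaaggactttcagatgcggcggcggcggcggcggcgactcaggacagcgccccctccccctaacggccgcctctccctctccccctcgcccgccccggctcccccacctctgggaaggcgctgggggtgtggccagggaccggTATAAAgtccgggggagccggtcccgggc
IGFBP6: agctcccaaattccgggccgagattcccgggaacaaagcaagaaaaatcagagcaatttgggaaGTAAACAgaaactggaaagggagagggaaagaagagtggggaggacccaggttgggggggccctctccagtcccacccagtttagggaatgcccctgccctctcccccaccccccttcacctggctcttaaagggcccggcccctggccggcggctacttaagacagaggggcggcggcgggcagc

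The forkhead core was searched as TATTTAC or TATTTGC or TGTTTAC or TGTTTGC, on both strands of windows that run from 250 bases before to 50 bases after each start. At least 1 such word stood in 12.1% of all 35116 RefSeq windows. The single IGFBP5 window held none, and neither did the single windows of IGFBP3, IGFBP4 and IGF1R. IGFBP6 held TGTTTAC on the opposite strand, beginning 186 bases upstream of its start, and its level was 1.15 times as high in the induced as in the uninduced column. The other words were in 1 of 2 IGF1 windows and in 1 of 3 IGFBP2 windows. A TATA word (TATAAA or TATATA or TATTTA on either strand, beginning 40 to 20 bases upstream) was in 4.99% of all windows. IGFBP5 held TATTTA beginning at base 31 upstream, IGFBP3 held TATATA at base 30 and IGFBP4 held TATAAA at base 29. These are different words of the set, and a link between them and the levels was not tested. These matches describe letters in short windows and say nothing on whether FOXA2 binds there. Windows of IGF2, IGFBP1 and IGFBP7 were not used here.

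The ligands were scarce. IGF2, the fetal growth factor of the pair, was at 2.92 FPKM (interval 0 to 7.24) in the induced column and 0.348 FPKM (0 to 1.06) in the uninduced column. The intervals overlap, and IGF2 passed the 1 FPKM filter through the induced column alone. Its difference in log2(FPKM + 1), taken throughout as the induced minus the uninduced value, was 1.54, the highest among members. IGF1, the growth hormone dependent ligand, was at 0.161 FPKM (0 to 1.08) induced and listed at 0 uninduced. Neither column therefore held more than a few FPKM of either ligand. The IGF2 row spans a locus on chromosome 11 (2150342 to 2182571, hg19) shared with 5 other rows, of which INS, IGF2-AS and MIR483 were listed at 0 in both columns.

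IGF1R, which carries the signal of both ligands, was at 23.0 FPKM (interval 0 to 50.7) induced and 12.5 FPKM (0 to 31.2) uninduced. The induced value was 1.84 times the uninduced one, and the intervals overlap. The row has 17 annotated start sites, and the upper bound lay 121% above its FPKM induced and 149.9% uninduced, against medians of 99.97% and 101% for the genes over the filter. IGF2R, which clears IGF2 from the cell surface, was at 38.1 FPKM (10.7 to 65.4) induced and 40.8 FPKM (10.1 to 71.5) uninduced. INSR, the insulin receptor, was at 2.92 FPKM (0 to 6.001) induced and 2.07 FPKM (0 to 4.22) uninduced.

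**Figure D1:**
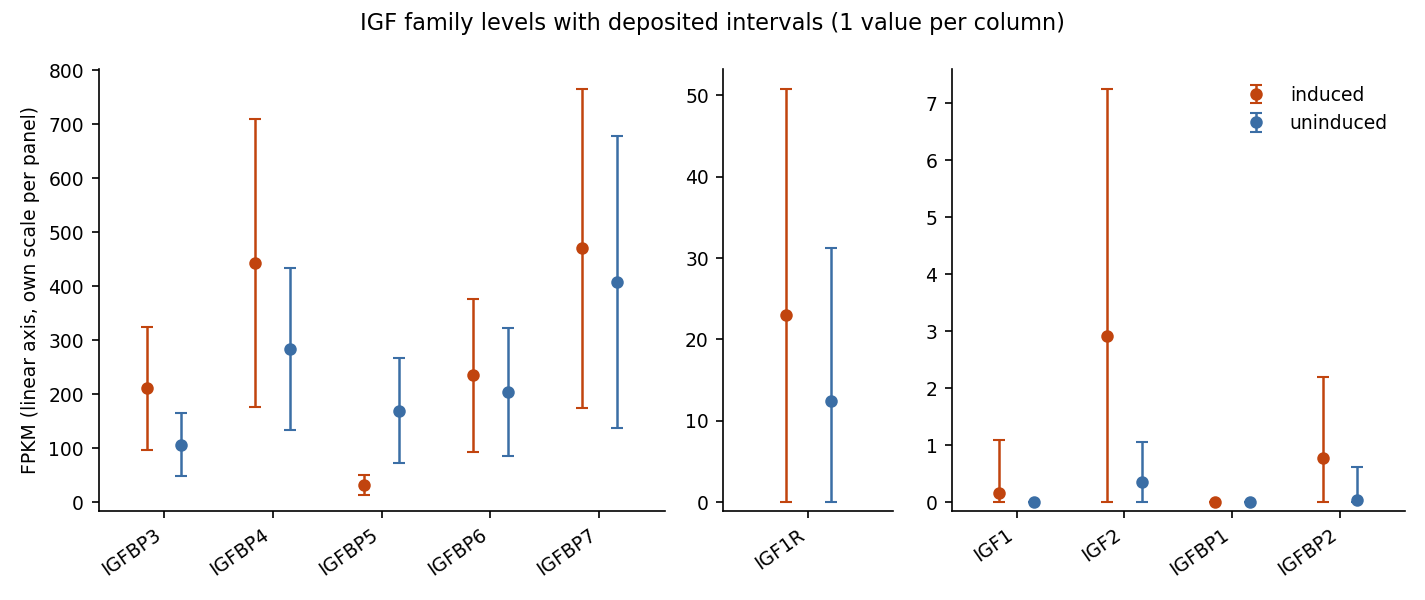
FPKM of the 10 members in the induced column (left of each pair) and the uninduced column (right); points are the deposited values, bars the deposited intervals, and each panel has its own linear axis. IGFBP5 is the one gene whose bars do not overlap, with an induced upper bound of 49.7 FPKM and an uninduced lower bound of 71.7 FPKM.

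IGFBP5 was at 31.9 FPKM (interval 14.1 to 49.7) in the induced column and 169.5 FPKM (71.7 to 267) in the uninduced column. The uninduced value was 5.31 times the induced one, and the ratio between the nearest interval bounds was 1.44. The log2 difference was -2.37, lower than in all but 76 of the 14319 genes over the filter. Among the 774 genes whose mean level lay between 100 and 300 FPKM, 4 had a lower difference than IGFBP5, and the median of that band was -0.34.

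The IGFBP5 row (ENSG00000115461) spans chromosome 2, 217536828 to 217858802 in hg19, a locus shared with 11 other rows. One of them, AC007563.5 (ENSG00000236886), is an antisense gene in GENCODE release 29 and overlaps IGFBP5 by 1062 bases on the opposite strand. AC007563.5 was at 9.002 FPKM (interval 0 to 46.3) induced and 58.4 FPKM (0 to 282) uninduced. The library does not keep strand, so reads of the shared stretch cannot be divided between the genes. Both rows were lower in the induced column, and their sum was 40.9 FPKM induced and 228 FPKM uninduced, a log2 difference of -2.45. Fewer cells that make IGFBP5 and less IGFBP5 RNA per cell cannot be told apart in these bulk libraries. Markers of smooth muscle, of which 2 of 4 passed the filter, summed to 22.5 FPKM induced and 89.5 FPKM uninduced. Most of this was SMTN, at 19.8 FPKM (interval 4.26 to 35.2) induced and 84.0 FPKM (34.8 to 133) uninduced. CNN1 was at 2.61 FPKM (0 to 6.61) induced and 5.29 FPKM (0 to 11.8) uninduced, and the intervals of both genes overlap. DES was listed at 0 in both columns, and MYH11 was at 0.114 FPKM induced and 0.246 FPKM uninduced. The actin genes ACTA2 and ACTG2, outside the searched list, were not lower, with log2 differences of 0.08 and 0.83. Sums of the fibroblast, epithelial, keratinocyte and melanocyte markers were also lower in the induced column, and those of hepatocyte and immune markers higher. Markers within a sum did not all go the same way. Of the 10 fibroblast markers 7 had differences below 0 and 3 above. The most abundant was VIM, at 905 FPKM induced and 2098 FPKM uninduced. Endothelial markers, with 0 of 5 over the filter, summed to 0.0836 FPKM induced and 0.269 FPKM uninduced, too low to read a direction. The part of any of these in the IGFBP5 result was not tested.

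IGFBP3, the main carrier of IGF in serum, was at 211 FPKM (interval 97.4 to 325) induced and 107 FPKM (49.2 to 164) uninduced. The induced value was 1.98 times the uninduced one, and the interval of the difference ran from -23.1 to 232 FPKM. IGFBP4, which withholds IGF until a protease cuts it, was at 443 FPKM (176 to 710.4) induced and 284 FPKM (134 to 434) uninduced, a ratio of 1.56. For both genes the intervals overlap, so neither passed. In their level bands the differences of 0.98 for IGFBP3 and 0.64 for IGFBP4 were above those of 93.9% of 774 genes and of 92.6% of 215 genes with a mean of at least 300 FPKM. The median of the upper band was -0.68, since abundant genes had lower values in the induced column as a class.

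IGFBP6, which binds IGF2 in preference to IGF1, was at 235 FPKM (interval 93.5 to 376) induced and 204 FPKM (85.3 to 323) uninduced. IGFBP7 was the most abundant member in both columns, at 470.3 FPKM (175 to 766) induced and 408 FPKM (137 to 678) uninduced. Both ratios were near 1.15, and the intervals of either gene overlap. Their log2 differences, 0.20 for IGFBP6 and 0.21 for IGFBP7, compare with a median of 0.05 over all genes above the filter. In their level bands they were above those of 80.1% of 774 genes for IGFBP6 and 89.3% of 215 genes for IGFBP7. The IGFBP7 locus holds 8 other rows, among them IGFBP7-AS1 at 0.0690 FPKM induced and 0.0929 FPKM uninduced.

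The liver-type binding protein IGFBP1 was listed at 0 in both columns, with bounds of 0, while FOXA2 stood at 104 FPKM in the induced column. IGFBP2, a binding protein of fetal tissue and brain, was at 0.774 FPKM (interval 0 to 2.19) induced and 0.0399 FPKM (0 to 0.610) uninduced, under the filter in both. The family lies in part in neighbouring pairs. IGFBP2 (chromosome 2, 217497551 to 217529159, hg19) lies near IGFBP5, and IGFBP1 (chromosome 7, 45927956 to 45933267) near IGFBP3 (45951949 to 45961473). In each pair 1 gene was above 30 FPKM and the other was under the filter, in both columns.

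**Figure D2:**
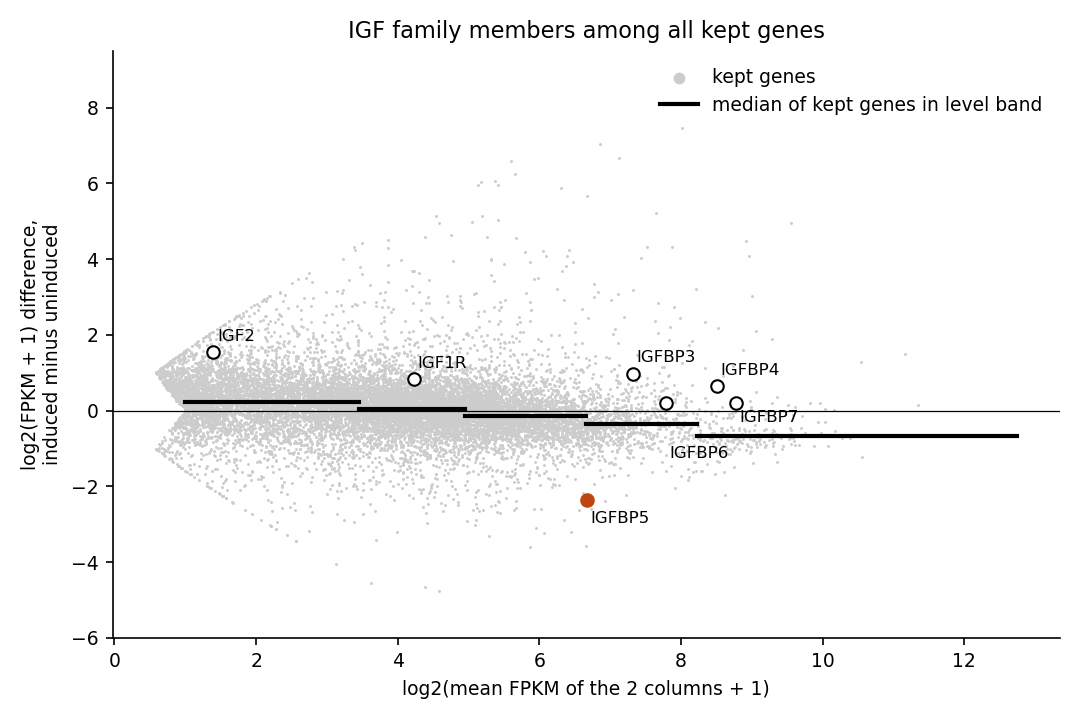
Log2(FPKM + 1) difference, induced minus uninduced, against log2 of the mean level + 1 for the genes over the filter (grey), with the median of each level band (black lines) and the 7 members over the filter (circles; filled, the one that fell). IGFBP5 lies at -2.37 and the other 6 members above 0; 1 gene lies beyond the lower end of the axis.

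Over the filter, 7 of the 10 members were left, of which 6 had differences above 0 and 1 below, with a median of 0.64. IGF2 is among the 6 and passed through the induced column alone, which fixes its sign. With no filter the median of all 10 members was 0.43. Over all 14319 genes 53.7% lay above 0. By the interval criterion 0 members rose and 1 fell, beside the background of 0.726% and 0.454%. With the looser criterion that the difference has an interval without 0, the members counted were again 0 higher and 1 lower (background 1.26% and 1.11%). At least 2-fold differences on the log2 scale were seen for IGF2 upward and IGFBP5 downward, beside 9.2% of genes higher and 6.03% lower.

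The make-up of binding protein mRNA is described by shares of summed FPKM, which carry no interval and no replicate. IGFBP5 was the sole binding protein whose intervals separated between the columns. Its lower value by itself raises the shares of the others in the common sum. FPKM is scaled to transcript length, so levels of different genes can be summed. The 7 binding proteins summed to 1392 FPKM induced and 1172 FPKM uninduced. IGFBP5 made up 2.29% of that sum induced and 14.5% uninduced. IGFBP4 made up 31.8% induced and 24.2% uninduced, and IGFBP3 made up 15.2% induced and 9.11% uninduced. The shares of IGFBP7 (33.8% induced, 34.8% uninduced) and IGFBP6 (16.9% induced, 17.4% uninduced) were close in the 2 columns. The order from the top was IGFBP7, IGFBP4, IGFBP6, IGFBP3, IGFBP5 induced and IGFBP7, IGFBP4, IGFBP6, IGFBP5, IGFBP3 uninduced. Of the 10 pairs among these 5 genes, 4 had separate intervals induced, all with IGFBP5 as the lower gene, and 0 had separate intervals uninduced. Below them, IGF1R was separate from the gene above it in the uninduced column, where that gene was IGFBP3, and overlapped it in the induced column, where it was IGFBP5. All lower neighbours in the order overlapped.

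**Figure D3:**
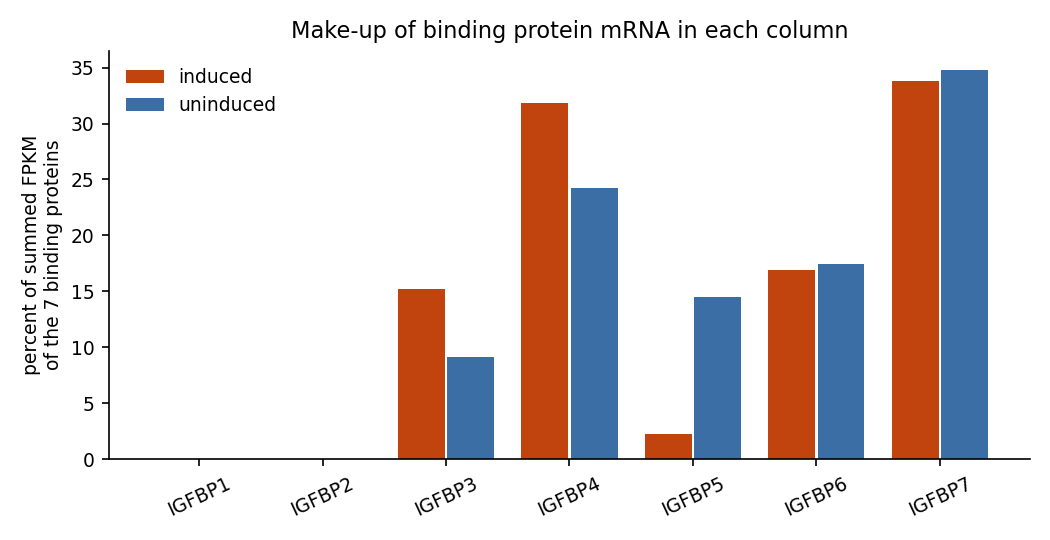
Share of the summed FPKM of the 7 binding proteins held by each gene, in percent, in the induced (left bar) and uninduced (right bar) column. IGFBP5 holds 2.29% induced and 14.5% uninduced; IGFBP1 and IGFBP2 are at or near 0.

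The wider IGF and insulin pathway was described in 9 lists with 96 further genes, of which 69 passed the filter. By the interval criterion 0 rose and 1 fell, beside 0.726% and 0.454% of all 14319 genes over the filter. The median difference was 0.15, or 0.07 with no filter, against 0.05 over all genes above the filter. Of the 69 genes 41 lay above and 28 below 0, where 53.7% of all genes lay above. The gene that fell was ESM1, or endocan, a secreted proteoglycan with an IGFBP-type domain, at 0.602 FPKM (interval 0 to 2.65) induced and 39.1 FPKM (11.5 to 66.7) uninduced. The list of low-affinity relatives to which it belongs had 7 of 13 genes over the filter, IGFBP7 among them, with a median of 0.06. Of these 4 lay above and 3 below 0; without IGFBP7 the median had the other sign, at -0.30.

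Of the proteases that cut binding proteins and their inhibitors, 13 of 14 passed the filter, with a median of -0.15. By the interval criterion 0 of the 13 rose or fell, near the background of 0.726% and 0.454% of all genes over the filter. Differences lay above 0 for 6 of the 13 and below 0 for 7. The 2 most abundant were the collagenase MMP1, at 2749 FPKM (interval 20.7 to 5478) induced and 2476 FPKM (97.9 to 4855) uninduced, and PRSS23, a secreted serine protease, at 703 FPKM (128 to 1279) induced and 233 FPKM (74.2 to 391) uninduced. PAPPA and HTRA1 were picked out after their values had been seen, for their known action on IGFBP4 and IGFBP5. PAPPA, or pappalysin, which cuts both, was at 12.5 FPKM (0.0442 to 25.01) induced and 2.23 FPKM (0 to 5.02) uninduced. HTRA1, counted with the low-affinity relatives for its IGFBP-type domain, cuts IGFBP5 and was at 145 FPKM (49.8 to 239.5) induced and 61.9 FPKM (24.3 to 99.5) uninduced. The intervals of both overlap. ADAM12 and PLAU of the protease list, also picked out after their values had been seen, were lower in the induced column, with overlapping intervals. ADAM12 was at 0.625 FPKM (0 to 1.98) induced and 2.66 FPKM (0 to 6.52) uninduced, and passed the filter through the uninduced column alone. PLAU was at 8.42 FPKM (0.574 to 16.3) induced and 25.2 FPKM (3.40 to 46.9) uninduced.

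Inside the cell, 13 of 14 receptor adaptors passed the filter, with a median of 0.42 and 0 that rose or fell. GRB14 passed through the induced column alone, and with no filter the median was 0.27. The most abundant were SHC1, at 192 FPKM (interval 44.7 to 339) induced and 199.7 FPKM (52.4 to 347) uninduced, and GRB2, at 87.3 FPKM (18.2 to 156) induced and 79.7 FPKM (17.5 to 142) uninduced. Of the PI3K, AKT and mTOR relay 22 of 23 passed, with a median of 0.02, a range from -0.44 to 1.16 and 0 that rose or fell. In lists of this size 0 is near the background, where 0.726% of genes over the filter rose and 0.454% fell. The kinase AKT1 was at 89.1 FPKM (34.8 to 143) induced and 117 FPKM (47.7 to 186) uninduced. RHEB, the GTPase that activates mTOR, was at 75.9 FPKM (26.2 to 126) induced and 103 FPKM (41.4 to 165) uninduced.

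Of the FOXO factors and genes restrained by insulin 13 of 19 passed the filter. By the interval criterion 0 of the 13 rose or fell, near the background of 0.726% and 0.454% of all genes over the filter. Of the 13 genes 11 lay above and 2 below 0, with a median of 0.73, where 53.7% of all genes over the filter lay above 0. FOXO1 and KLF15 passed through the induced column alone, which fixes their sign. With no filter the median of the list was 0.43. CCNG2, a cyclin of arrested cells, was at 53.3 FPKM (interval 14.5 to 92.1) induced and 20.0 FPKM (3.65 to 36.3) uninduced. CITED2, a transcriptional coregulator, was at 288 FPKM (138 to 438) induced and 307 FPKM (147 to 467) uninduced. PCK1 and G6PC, the gluconeogenic enzymes of the liver, were listed at 0 in both columns, as was IGFBP1. The IGF2 mRNA binding proteins IGF2BP3 (74.1 FPKM induced, 62.3 FPKM uninduced) and IGF2BP2 (44.1 FPKM induced, 52.7 FPKM uninduced) were expressed with overlapping intervals, while the imprinted RNA H19 was listed at 0 in both columns.

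**Figure D4:**
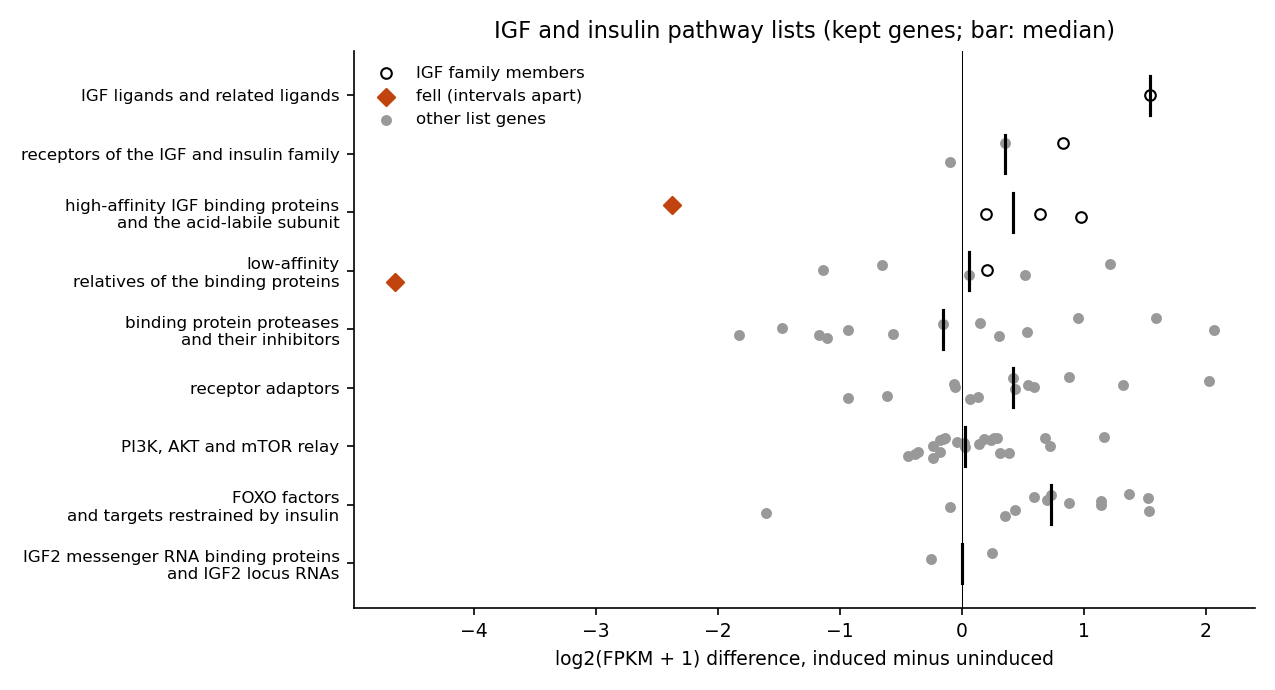
Log2(FPKM + 1) difference, induced minus uninduced, of each gene over the filter in the 9 pathway lists; bars are list medians, open circles members of the family, diamonds genes that fell. The diamonds are IGFBP5 at -2.37 and ESM1 at -4.65.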

How the data were processed

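RNA was measured in 2 induced and 2 uninduced samples with a TruSeq kit that keeps no strand, per the labels' protocols. TopHat and hg19 are named in the submitters' processing notes; for versions, quantifier, filters and whether both samples enter a column, the sources used here give nothing. Per the file headers, each deposited FPKM comes with a lower and an upper bound, whose confidence level is not stated. The 3 value columns of another condition were not used.

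The planned limma fit needs values per sample and was not run. Genes under 1 FPKM in both of the 2 columns were left out. Log2 differences use a pseudocount of 1, which understates changes of low genes. Genes with malformed bounds (3 of those kept) were never called. The interval call was checked only on simulated columns whose noise was set from the deposited bounds. That check cannot show whether the bounds cover the spread between samples. Row starts were counted from 0 and are given here counted from 1: lengths then matched GENCODE release 29 for 22132 rows, against 326 otherwise.

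Depth is unknown, as no counts are given. Among 2973 low genes with 1 start site the ratio of induced to uninduced values peaked at 0.86, with 131 genes within 0.01. If that is the value of 1 fragment, and FPKM was scaled by the mapped total alone, the induced depth would be 1.16 times the uninduced. Whether other factors entered the scaling is not given.

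Members and lists were chosen with earlier results of these data known. All 10 members were named, with other list genes that rose or fell or else the 2 most abundant, and FOXA2. TATA words, level bands and genes said to be picked out were chosen after values had been seen. So were genes said to pass the filter through a single column alone and the marker and actin genes named beside IGFBP5. Python 3.11.15, numpy 2.4.6 and pandas 2.3.3 were used. Protein sequences were not analysed here. A result on 1 list gene is not reported here.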

Additional observations from a re-analysis of the deposited data

How the results depend on the processing

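No paired analysis was possible because values per sample are not among the columns; the replicate block and the fits without a replicate were not run for that reason. IGFBP5 fell under all 3 scalings tried; a pseudocount does not enter that call. Its log2 differences ran from -2.43 to -2.18 over the scalings and 2 pseudocounts, and with its antisense row added, an alternative chosen after the data were seen, the difference was -2.45. The other 6 members over the filter stayed above 0 under the same 5 alternatives, and their intervals overlapped under the 3 scalings. IGF2, whose sign the filter fixes, ranged most widely, from 1.31 to 2.75. Under a pseudocount of 0.1 the differences of IGF1 and IGFBP2, both under the filter, were 1.38 and 2.64, since so low a constant enlarges values near 0. Scaling to the same sum put the median of all kept genes at 0.23, against 0.05 as deposited. The median of the members was 0.84 after scaling to the same sum, where that of the wider lists was 0.35, and 0.76 after quantile normalization, 0.43 with no filter and 0.42 with a mean of at least 5 FPKM. With the looser criterion on the interval of the difference, 1 wider list gene rose (SESN2) and 2 fell, ESM1 among them, beside 180 and 159 of all genes. By a 2-fold rule without intervals 1 member was higher (IGF2), with 11 wider list genes higher and 7 lower, beside 1317 and 863 of all genes. Of 62 medians of single lists under the alternatives, 33 stayed within 0.1 and 29 moved further; that of the proteases was 0.05 after scaling to the same sum, against -0.15 as deposited. The width of the intervals limits the calls: the lower bound was 0 for 7187 kept genes induced and 7275 uninduced.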

Other observations

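Some pathway genes outside the named set differed by at least 2-fold between the columns with overlapping intervals. Of the 69 wider list genes over the filter, 11 were at least 2-fold higher and 7 lower, ESM1 among the latter. Over all genes above the filter 9.2% were higher and 6.03% lower by the same rule. The list genes given here are a part of the 11 and 7, picked out after their values had been seen. GRB14, an adaptor that inhibits the insulin receptor, was at 3.77 FPKM (interval 0 to 9.35) induced and 0.170 FPKM (0 to 0.962) uninduced. It passed the filter through the induced column alone. SESN2, a stress-induced regulator of mTOR, was at 18.9 FPKM (7.21 to 30.6) induced and 5.89 FPKM (1.13 to 10.7) uninduced, and TRIB1, a pseudokinase, at 15.2 FPKM (4.54 to 25.9) induced and 4.58 FPKM (0.370 to 8.79) uninduced. TXNIP, which limits glucose uptake, was lower in the induced column, at 3.30 FPKM (0 to 6.64) induced and 12.1 FPKM (2.86 to 21.3) uninduced. CTGF was also lower, at 41.5 FPKM (15.3 to 67.7) induced and 92.5 FPKM (44.6 to 140) uninduced. So was STC1, at 30.2 FPKM (10.8 to 49.7) induced and 66.3 FPKM (32.0 to 100.5) uninduced.

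Within the locus of the IGF1R row, SYNM, an intermediate filament gene, was at 4.83 FPKM (interval 0 to 13.2) induced and 0.220 FPKM (0 to 1.21) uninduced, and RP11-6O2.4 was at 4.34 FPKM (0 to 14.7) induced and 0.281 FPKM (0 to 2.01) uninduced. In the IGF2 locus, AC132217.4 was at 1.498 FPKM (0 to 10.3) induced and 0.0493 FPKM (0 to 0.676) uninduced. All 3 neighbours had overlapping intervals, and how reads were divided between rows of a locus was not tested.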
